A study of Macaca mulatta with 449 samples.

Results

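The 9 genes described here, *CUX1*, *CUX2*, *RORB*, *FEZF2*, *TBR1*, *BCL11B*, *FOXP1*, *FOXP2* and *TLE4*, encode transcription factors and 1 co-repressor that mark layers of the cerebral cortex. They were chosen by symbol, with earlier results of these data known, and each symbol matched 1 row of the 30807 genes in the count table. RNA-seq after removal of ribosomal RNA was analysed for 51 sub-regions of the brain of 8 healthy rhesus macaques, and midbrain samples of the same animals, which the labels leave out of the expression data, were not analysed here. The 31 cortical sub-regions fell into a frontal lobe of 10 sub-regions, a parietal lobe of 9, a temporal lobe of 4, an occipital lobe of 3 and a limbic group of 5, and the other 20 sub-regions included the olfactory bulb, hippocampus, amygdala, striatum, thalamus, brainstem, cerebellum and pituitary. The entorhinal and perirhinal cortex (PA) was counted among these 20 and not among the 31. All animals were untreated and came from 1 source. The 4 young animals were the females 4 (3.2 years) and 10 (5 years) and the males 7 (4 years) and 8 (3.8 years), and the 4 mid-aged animals were the females 6 (10 years) and 11 (9.8 years) and the males 2 and 3 (10 years each).

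The neocortex is built of layers whose excitatory neurons differ in their targets. Neurons of the upper layers mostly connect cortical areas with each other and carry *CUX1*, *CUX2* and, in the layer that receives thalamic input, *RORB*. Neurons of the deep layers project out of the cortex: *FEZF2* and *BCL11B* direct the fate of those that reach the brainstem and spinal cord, while *TBR1*, *FOXP2* and *TLE4* mark those that reach the thalamus, and *FOXP1* is spread over several layers. Several of the 9 genes are also known from other structures, *BCL11B* and *FOXP1* from the projection neurons of the striatum among them. The samples were pieces of tissue that held all layers and cell types, so fewer cells of a type and less RNA per cell cannot be told apart, and a layer was not measured directly.

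The total count per sample ranged from 7784678 to 31083490 reads assigned to genes, with a median of 10698602, and no 2 samples held identical values. Levels are given as CPM, the reads of a gene scaled to library size, with scaling by the trimmed mean of M values. They compare a gene between samples and not 1 gene with another, since no gene lengths of this annotation were used. The summed level of 6 markers of excitatory cortical neurons was 4281 to 5674 CPM in the cortex of the 8 animals, against 104 to 511 CPM in the corpus callosum, the large fibre tract between the hemispheres. In 4 samples from outside the cortex, *SLC17A7*, the vesicular glutamate transporter of cortical excitatory neurons, stood far above the other animals. It reached 473 CPM in the hypothalamus of animal 6 (median of the 8 animals 2.49), 232 CPM in the nucleus accumbens of animal 10 (median 6.48), 112 CPM in the putamen of animal 3 (median 1.99) and 95.4 CPM in the substantia nigra of animal 4 (median 1.59). Leaving out these 4 libraries, an alternative chosen after seeing the data, changed neither the direction nor the call of any of the 9 genes in the 4 sub-regions, and the values without them are given where they moved most.

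Against the other sub-regions, *CUX2*, *RORB* and *TBR1* were higher in the cortex than in each of the 20, whereas the other 6 genes had at least 1 sub-region in which they exceeded the cortex. For this comparison, the counts of the 31 cortical sub-regions were summed within each animal and fitted with the animal as a block in edgeR, at a false discovery rate (FDR) under 0.05 over all genes tested. Of the 180 pairs of a member and a sub-region, the cortex was higher in 129, lower in 33 and not different by the test in 18. Over all genes, 29.7% of such pairs were higher in the cortex and 29.9% lower. Against the mean of the 20 sub-regions on the log scale, 8 members were higher and *TLE4* was lower (background 34.1% higher and 32.6% lower). The map of all 9 genes over the 51 sub-regions shows these patterns.

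**Figure D1:**
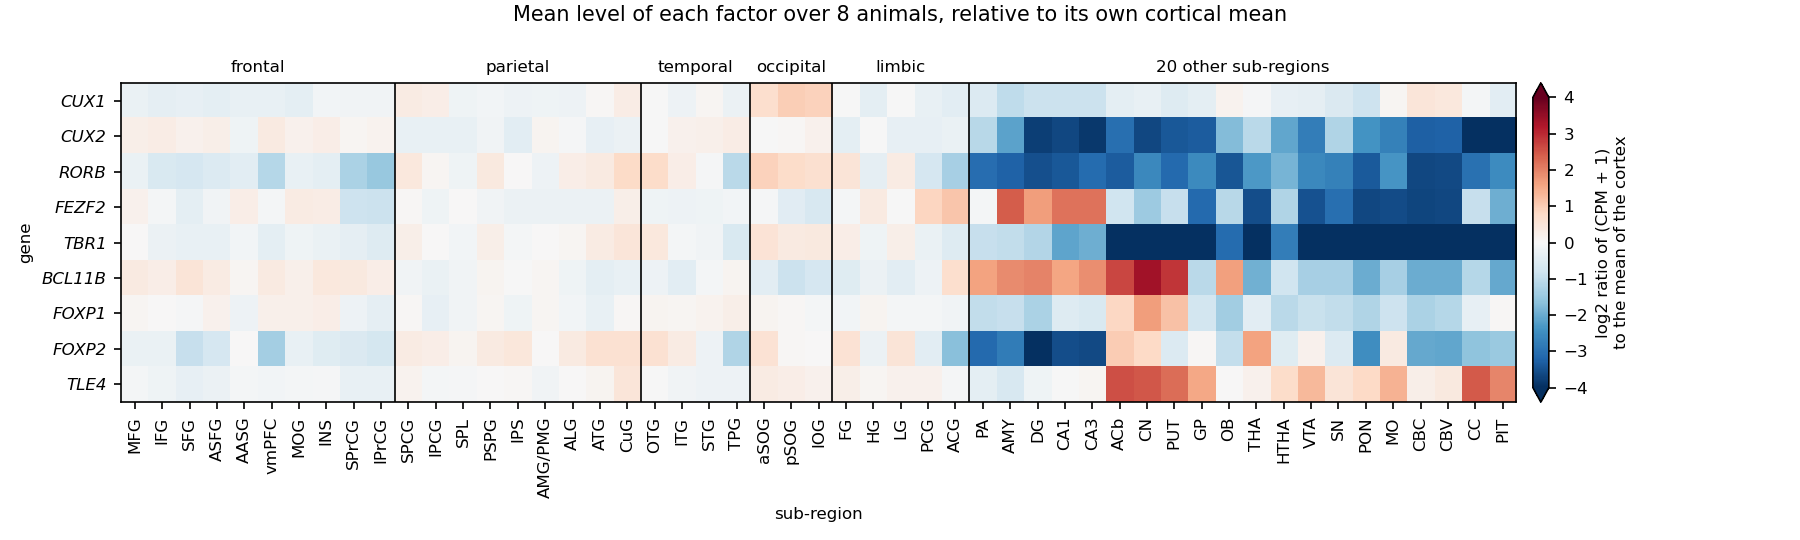
Mean level of the 9 genes (rows) in 51 sub-regions (columns, grouped by lobe for the cortex), as the log2 ratio of (CPM + 1) to the mean of the 31 cortical sub-regions; red is above and blue below that mean, and values past 4 are drawn at the end of the scale. *CUX2*, *RORB* and *TBR1* were blue in all 20 sub-regions outside the cortex, while *FEZF2* was red in the amygdala and hippocampus and *BCL11B*, *FOXP1* and *TLE4* in the striatum.

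Among the genes of the upper layers, *CUX2*, a homeodomain factor that shapes dendrites and synapses of upper layer neurons, had a cortical level of 61.4 CPM in the lowest animal, 76.4 CPM at the median and 88.2 CPM in the highest. Outside the cortex its mean was highest in the thalamus (35.1 CPM ± 9.64, SD, n = 8) and in the entorhinal and perirhinal cortex (34.1 CPM ± 12.1), and it was 0.246 CPM ± 0.166 in the pituitary. The cortical range lay above that of 19 of the 20 sub-regions. The exception was the hypothalamus, where animal 6 reached 80.7 CPM and the other 7 animals 5.56 to 10.4 CPM. The log2 difference between the cortex and the mean of the 20 was 3.20 ± 0.12 (SE, FDR = 1.19e-55), higher in 8 of 8 animals. For the hypothalamus alone it was 2.35 with all animals and 3.27 without animal 6.

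*RORB*, a nuclear receptor that organises the thalamic input layer, had a cortical level of 19.65 CPM in the lowest animal, 36.4 CPM at the median and 53.7 CPM in the highest. No other sub-region had a mean above the 9.32 CPM ± 10.1 of the hypothalamus, in which animal 6 alone reached 33.4 CPM and the others 2.55 to 11.1 CPM. Next came the thalamus with 6.56 CPM ± 2.90, and the cerebellar cortex was lowest with 1.98 CPM ± 0.936. Thus the cortical animals lay above those of every sub-region other than the hypothalamus. The log2 difference to the mean of the 20 was 3.30 ± 0.12 (FDR = 6.68e-59, 8 of 8 animals), and for the hypothalamus it was 2.08, or 2.55 without animal 6.

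*CUX1*, the paralog of *CUX2*, was not bound to the cortex in the same way. Its cortical level was 44.8 CPM in the lowest animal, 54.7 CPM at the median and 59.3 CPM in the highest, and the cerebellar cortex (73.8 CPM ± 6.98) and vermis (71.2 CPM ± 16.2) were higher. The 8 cerebellar cortex samples, from 65.7 to 84.5 CPM, did not overlap with the cortex. Log2 differences of the cortex to these 2 sub-regions were -0.50 and -0.45, and 14 of the 20 sub-regions were lower than the cortex, with the amygdala lowest at 25.8 CPM ± 3.56 (log2 difference 1.02). The 4 that did not pass the test were the corpus callosum, the medulla oblongata, the olfactory bulb and the thalamus, at log2 differences from -0.12 to 0.10. The difference to the mean of the 20 was 0.39 ± 0.08 (FDR = 2.47e-06).

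Among the genes of the deep layers, *TBR1*, a T-box factor of corticothalamic neurons, had a cortical level of 35.4 CPM in the lowest animal, 60.7 CPM at the median and 80.6 CPM in the highest. It was followed by the entorhinal and perirhinal cortex (30.9 CPM ± 6.32), the amygdala (29.6 CPM ± 10.4), the dentate gyrus (25.9 CPM ± 6.95), CA3 (14.7 CPM ± 5.54) and CA1 (13.1 CPM ± 4.90). Ranges of the cortex overlapped with those of the first 3 of these. The log2 difference to the mean of the 20 was 5.82 ± 0.15 (8 of 8 animals), and the plain mean over the 20 was 6.80 CPM ± 1.55 against 59.8 CPM ± 15.2 in the cortex. In the thalamus, caudate nucleus, ventral tegmental area, substantia nigra, pons, medulla oblongata, both parts of the cerebellum and the pituitary, at most 4 reads were counted in any sample, and such low levels weigh heavily in the log scale mean. The log2 difference to the amygdala was 0.97, to the entorhinal and perirhinal cortex 0.94 and to the dentate gyrus 1.22, and these 3 calls were not made by DESeq2 (FDR = 0.22, 0.24 and 0.068) or by limma (FDR = 0.14, 0.22 and 0.068).

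The putamen and nucleus accumbens show how far single libraries carried *TBR1*. In the putamen, animal 3 had 6.22 CPM and the other 7 had 0 to 0.609 CPM, and in the nucleus accumbens animal 10 had 13.9 CPM against 0.101 to 2.91 CPM. In the hypothalamus, animal 6 had 46.2 CPM and the others 0.361 to 5.59 CPM. All 3 sub-regions stayed below the cortex without these libraries, with log2 differences of 8.66, 6.02 and 4.62 in place of 6.06, 4.59 and 3.25.

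*FEZF2*, a zinc finger factor that specifies subcerebral projection neurons, was low in the cortex when set beside the limbic nuclei. Its cortical level was 9.56 CPM in the lowest animal, 11.2 CPM at the median and 15.6 CPM in the highest. It was 68.3 CPM ± 16.02 in the amygdala, 57.2 CPM ± 23.6 in CA1, 56.7 CPM ± 11.8 in CA3 and 39.6 CPM ± 12.03 in the dentate gyrus, and every sample of these 4 lay above every animal's cortex. The log2 differences of the cortex were -2.50, -2.20, -2.25 and -1.72. The entorhinal and perirhinal cortex (11.2 CPM ± 6.38) did not pass the test against the cortex (log2 difference 0.11 ± 0.21, FDR = 0.74).

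In the other 15 sub-regions *FEZF2* was lower than in the cortex. In the pons, cerebellar cortex, vermis and medulla oblongata no sample had more than 2 reads. Because the mean of the 20 sub-regions was taken on the log scale, such low levels weigh heavily in it: the log2 difference was 2.88 ± 0.15 in favour of the cortex, while the plain mean over the 20 was higher (13.4 CPM ± 3.15) than that of the cortex (11.8 CPM ± 2.17). In the nucleus accumbens, animal 10 had 16.3 CPM and the others 3.50 to 7.27 CPM, and the log2 difference was 0.87 with it and 1.27 without it.

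*BCL11B*, also known as CTIP2, acts downstream of *FEZF2* in corticospinal neurons and is needed by the projection neurons of the striatum. Its cortical level was 1.52 CPM in the lowest animal, 3.34 CPM at the median and 4.55 CPM in the highest. The caudate nucleus had 41.9 CPM ± 9.51, the putamen 29.6 CPM ± 9.25 and the nucleus accumbens 25.8 CPM ± 10.2, with no overlap with the cortex, and log2 differences of the cortex were -3.76, -3.18 and -2.99. Levels of 11.6 to 15.8 CPM in the 3 hippocampal sub-regions, the amygdala, the olfactory bulb and the entorhinal and perirhinal cortex were higher than in the cortex too. The other 11 sub-regions were lower, and in the cerebellum, pons and pituitary no sample had more than 2 reads. As for *FEZF2*, the log scale mean favoured the cortex (0.91 ± 0.16) and the plain mean of the 20 was higher (9.16 CPM ± 1.73 against 3.22 CPM ± 0.929), and with limma the log2 difference was 0.51 (FDR = 0.093), short of the threshold.

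*FOXP1* and *FOXP2* are forkhead factors, the latter tied to vocal learning and speech. *FOXP1* had a cortical level of 16.8 CPM in the lowest animal, 21.6 CPM at the median and 26.9 CPM in the highest, and it was higher in the caudate nucleus (70.5 CPM ± 11.0), the putamen (50.4 CPM ± 8.17) and the nucleus accumbens (39.2 CPM ± 13.3). The first 2 did not overlap with the cortex. Log2 differences of the cortex were -1.72, -1.20 and -0.86, the pituitary (22.4 CPM ± 4.46) did not pass the test, and the remaining 16 sub-regions were lower than the cortex, down to 7.66 CPM ± 1.85 in the olfactory bulb. The call for the corpus callosum was not made by DESeq2 (FDR = 0.053) or limma (FDR = 0.14).

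*FOXP2* had a cortical level of 24.9 CPM in the lowest animal, 27.2 CPM at the median and 41.2 CPM in the highest. The thalamus had 93.2 CPM ± 24.7 (35.7 CPM in animal 8 and 87.8 to 111 CPM in the others), the nucleus accumbens 61.3 CPM ± 19.8 and the caudate nucleus 51.8 CPM ± 5.22, and all 3 were higher than the cortex (log2 differences of the cortex -1.64, -1.08 and -0.83). At the other end, *FOXP2* was 0.587 CPM ± 0.474 in the dentate gyrus, 1.64 CPM ± 1.41 in CA1, 1.51 CPM ± 1.05 in CA3, 2.55 CPM ± 1.25 in the entorhinal and perirhinal cortex and 3.38 CPM ± 0.852 in the amygdala, with the cortex above every one of these samples. So the structures with the highest *FEZF2* were among those with the lowest *FOXP2*. Animals differed most in the medulla oblongata, where the level was 112 CPM in animal 2 and 122 CPM in animal 3 and 3.48 to 23.98 CPM in the other 6. That sub-region and 5 others (the globus pallidus, hypothalamus, putamen, substantia nigra and ventral tegmental area) did not pass the test. With each pair fitted alone, the cortex was higher than the hypothalamus (0.53), putamen (0.60) and substantia nigra (0.60) at an FDR of 0.0064 or less in edgeR.

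*TLE4*, a Groucho co-repressor of corticothalamic neurons, was lower in the cortex than in the mean of the 20 sub-regions. It was even among animals in the cortex, with 36.05 CPM in the lowest, 39.9 CPM at the median and 43.1 CPM in the highest. It was 244 CPM ± 37.4 in the nucleus accumbens, 227 CPM ± 22.9 in the caudate nucleus, 224 CPM ± 31.2 in the corpus callosum, 192 CPM ± 30.2 in the putamen and 159 CPM ± 87.0 in the pituitary, all without overlap with the cortex. Log2 differences of the cortex were -2.62, -2.51, -2.46, -2.24 and -1.97. Only the amygdala (25.4 CPM ± 3.69) and the entorhinal and perirhinal cortex (30.1 CPM ± 5.10) were lower than the cortex by the test, 12 sub-regions were higher and 6 did not pass. Of these 6, the cerebellar cortex (-0.23) and dentate gyrus (0.21) passed when each pair was fitted alone. The log2 difference to the mean of the 20 was -0.87 ± 0.10 (FDR = 1.01e-14, 8 of 8 animals).

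**Figure D2:**
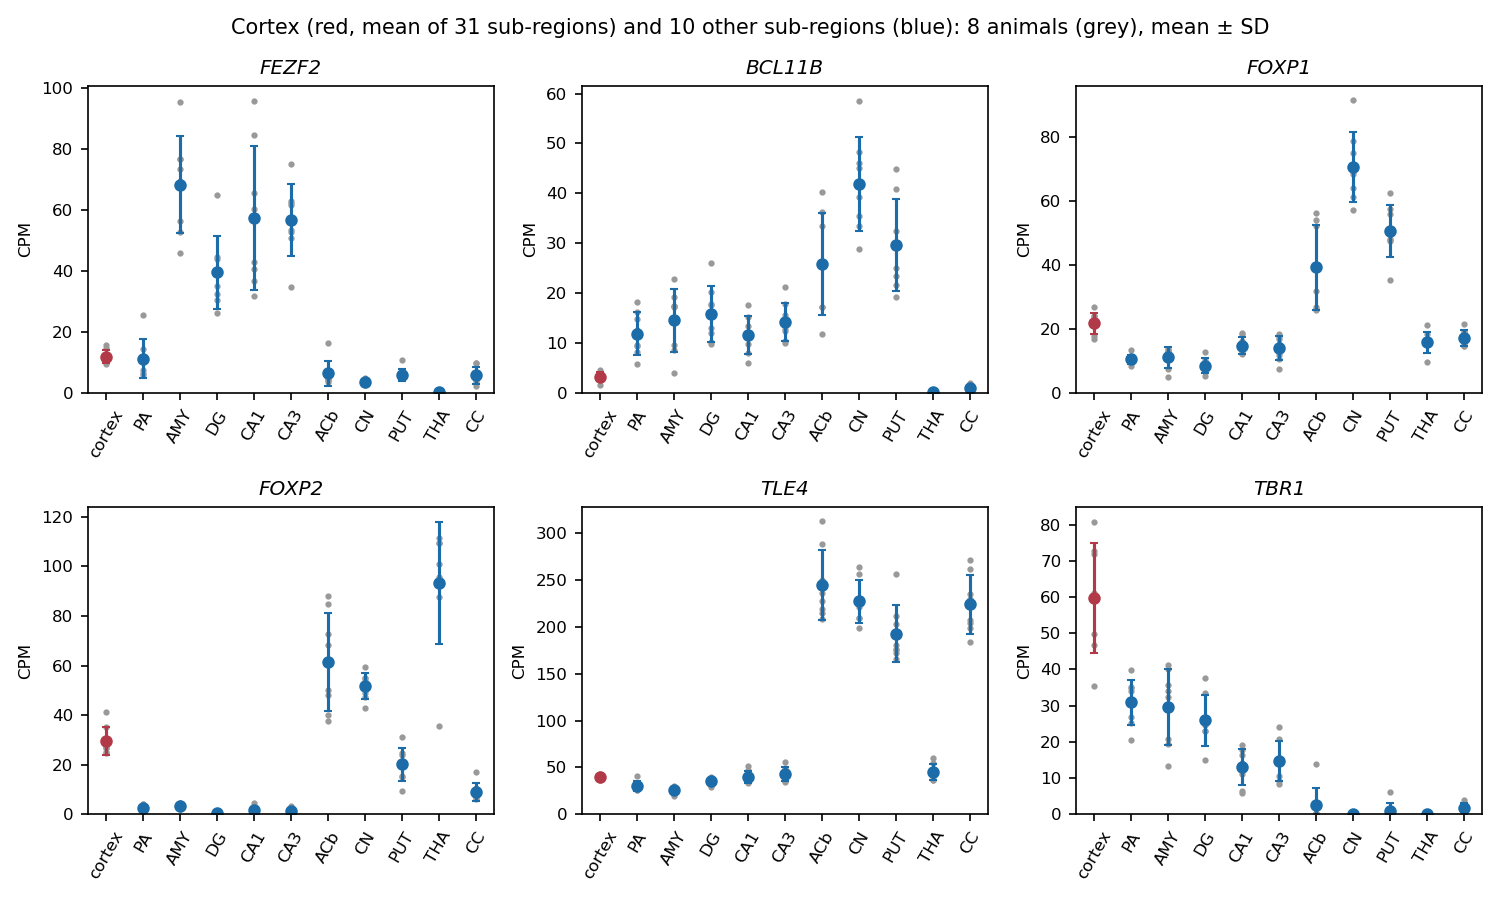
Level (CPM) of 6 genes in the cortex (red, the mean of 31 sub-regions in each animal) and, in blue, PA, the amygdala (AMY), dentate gyrus (DG), CA1, CA3, nucleus accumbens (ACb), caudate nucleus (CN), putamen (PUT), thalamus (THA) and corpus callosum (CC); grey points are the 8 animals, coloured points with bars are the mean and SD. *FEZF2* rose to 68.3 CPM in the amygdala, *BCL11B* to 41.9 CPM and *FOXP1* to 70.5 CPM in the caudate nucleus, *FOXP2* to 93.2 CPM in the thalamus and *TLE4* to 244 CPM in the nucleus accumbens, while *TBR1* was highest in the cortex.

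Within the cortex, member calls were most frequent in the occipital and frontal lobes, as were calls over all genes. Counts were summed by lobe within each animal, and each lobe was compared with the mean of the other 4. Of the 45 pairs of a member and a lobe, 11 were higher and 12 lower at an FDR under 0.05, where 16.3% of all such pairs over all genes were higher and 14.7% lower. In the occipital lobe 6 members were higher and 2 lower (background 29.4% and 26%), and in the frontal lobe 2 were higher and 5 lower (background 24.3% and 22.1%). The temporal lobe had 1 higher and 2 lower (13.7% and 11.8%), the limbic group 1 and 2 (8.78% and 7.52%) and the parietal lobe 1 and 1 (5.42% and 5.87%). Single lobes thus differed for many genes, in the occipital and frontal lobes above all.

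*CUX1* had the sharpest lobe difference of the 9. Its occipital level was 82.6 CPM in the lowest animal, 93.7 CPM at the median and 120 CPM in the highest, while the highest animal of any other lobe had 64.0 CPM. The occipital animals did not overlap with those of any other lobe. The log2 difference was 1.03 ± 0.04 (FDR = 1.26e-21, 8 of 8 animals), a 2.04-fold higher level. The frontal lobe (43.7 CPM ± 3.71, log2 difference -0.42), the limbic group (45.5 CPM ± 5.59, -0.36) and the temporal lobe (49.8 CPM ± 7.46, -0.19) were lower than the mean of the other lobes, each in 8 of 8 animals. The frontal and limbic levels did not differ from each other by the test (FDR = 0.54).

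*RORB* was also highest in the occipital lobe, but its animals spread widely. There it was 37.8 CPM in the lowest animal, 53.2 CPM at the median and 114 CPM in the highest, against 11.97, 21.35 and 39.03 CPM in the frontal lobe. The ranges overlapped, since the occipital levels of animals 3 and 11 lay under the frontal level of animal 11. The log2 difference was 0.97 ± 0.14 for the occipital lobe (FDR = 6.21e-07, 7 of 8 animals) and -0.90 ± 0.16 for the frontal lobe (FDR = 1.42e-05, 8 of 8 animals). The 3 lobes between them, parietal (43.2 CPM ± 19.1), temporal (39.2 CPM ± 14.2) and limbic (32.6 CPM ± 15.3), did not differ from each other by the test (FDR from 0.099 to 0.76), nor did the frontal lobe from the limbic group (FDR = 0.11). Without animal 11 the limbic group was lower than the other lobes for *RORB* (-0.43, FDR = 0.019 in edgeR).

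*TBR1* followed the same order, with 81.1 CPM ± 21.8 in the occipital lobe, 66.4 CPM ± 20.6 in the parietal lobe and 49.9 CPM ± 11.8 in the frontal lobe. All 3 ranges overlapped. Its log2 difference was 0.54 ± 0.08 in the occipital lobe (FDR = 3.20e-07) and -0.37 ± 0.08 in the frontal lobe (FDR = 2.04e-04), and without animal 11 it was lower in the limbic group (-0.20, FDR = 0.044 in edgeR). *TLE4* had the same directions in these 2 lobes at a smaller size, 0.29 ± 0.05 in the occipital and -0.25 ± 0.05 in the frontal lobe, and it was lower in the temporal lobe as well (-0.20 ± 0.05).

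*BCL11B* ran the other way. Its frontal level was 2.24 CPM in the lowest animal, 4.25 CPM at the median and 5.83 CPM in the highest, and its occipital level was 1.06, 1.59 and 2.74 CPM. Although the ranges overlapped, the frontal value was the higher in each of the 8 animals. The log2 difference was 0.76 ± 0.07 for the frontal lobe (FDR = 1.73e-10) and -0.89 ± 0.12 for the occipital lobe (FDR = 4.13e-08). Parietal, temporal and limbic levels, between 2.83 and 3.02 CPM on average, did not differ from each other by the test.

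*FEZF2* was higher in the limbic group than in the other lobes. Its limbic level was 10.7 CPM in the lowest animal, 15.4 CPM at the median and 27.9 CPM in the highest, where the lobe means of the other 4 were 8.97 to 11.2 CPM and overlapped with it. The log2 difference was 0.68 ± 0.10 (FDR = 1.33e-05, 8 of 8 animals), and the occipital lobe was lower (-0.43 ± 0.12, FDR = 0.0038, 7 of 8 animals). Of the single limbic sub-regions, only the anterior (1.27) and posterior (0.97) cingulate gyri passed against the other cortical sub-regions. The hippocampal gyrus (0.44, FDR = 0.0999 in edgeR), lingual gyrus (0.01) and fusiform gyrus (0.004) did not. *FOXP2* was low in the frontal lobe, with 13.02 CPM in the lowest animal, 18.99 CPM at the median and 32.04 CPM in the highest, and higher in the parietal lobe (28.9, 36.6 and 50.75 CPM). These ranges overlapped through animal 2, which had the highest value in both. The log2 differences were -0.73 ± 0.08 (frontal, FDR = 4.51e-09), 0.44 ± 0.08 (parietal, FDR = 7.78e-05) and 0.30 ± 0.08 (occipital, FDR = 0.0019).

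*CUX2* departed from *CUX1* and *RORB*. It was higher in the frontal lobe (86.0 CPM ± 10.2, log2 difference 0.25 ± 0.05) and in the temporal lobe (84.8 CPM ± 13.9, 0.21 ± 0.05) and lower in the parietal lobe (65.3 CPM ± 10.6, -0.25 ± 0.05) and limbic group (62.75 CPM ± 10.4, -0.34 ± 0.05), each in 8 of 8 animals. In the occipital lobe (79.4 CPM ± 7.38) the log2 difference of 0.14 ± 0.05 passed the test (FDR = 0.015) with 5 of 8 animals in that direction. This difference did not pass without animal 3 (FDR = 0.12), without animal 8 (FDR = 0.051) or without the filter on low counts (FDR = 0.072 in edgeR). The occipital lobe did not differ from the frontal (FDR = 0.17) or temporal lobe (FDR = 0.45) by the test. *FOXP1* passed in no lobe, with log2 differences from -0.14 to 0.17 and lobe means of 20.4 to 23.98 CPM. Without animal 11, however, 4 of its 5 lobe differences passed, at log2 values of -0.19 (parietal), -0.16 (limbic), 0.15 (occipital) and 0.18 (temporal).

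**Figure D3:**
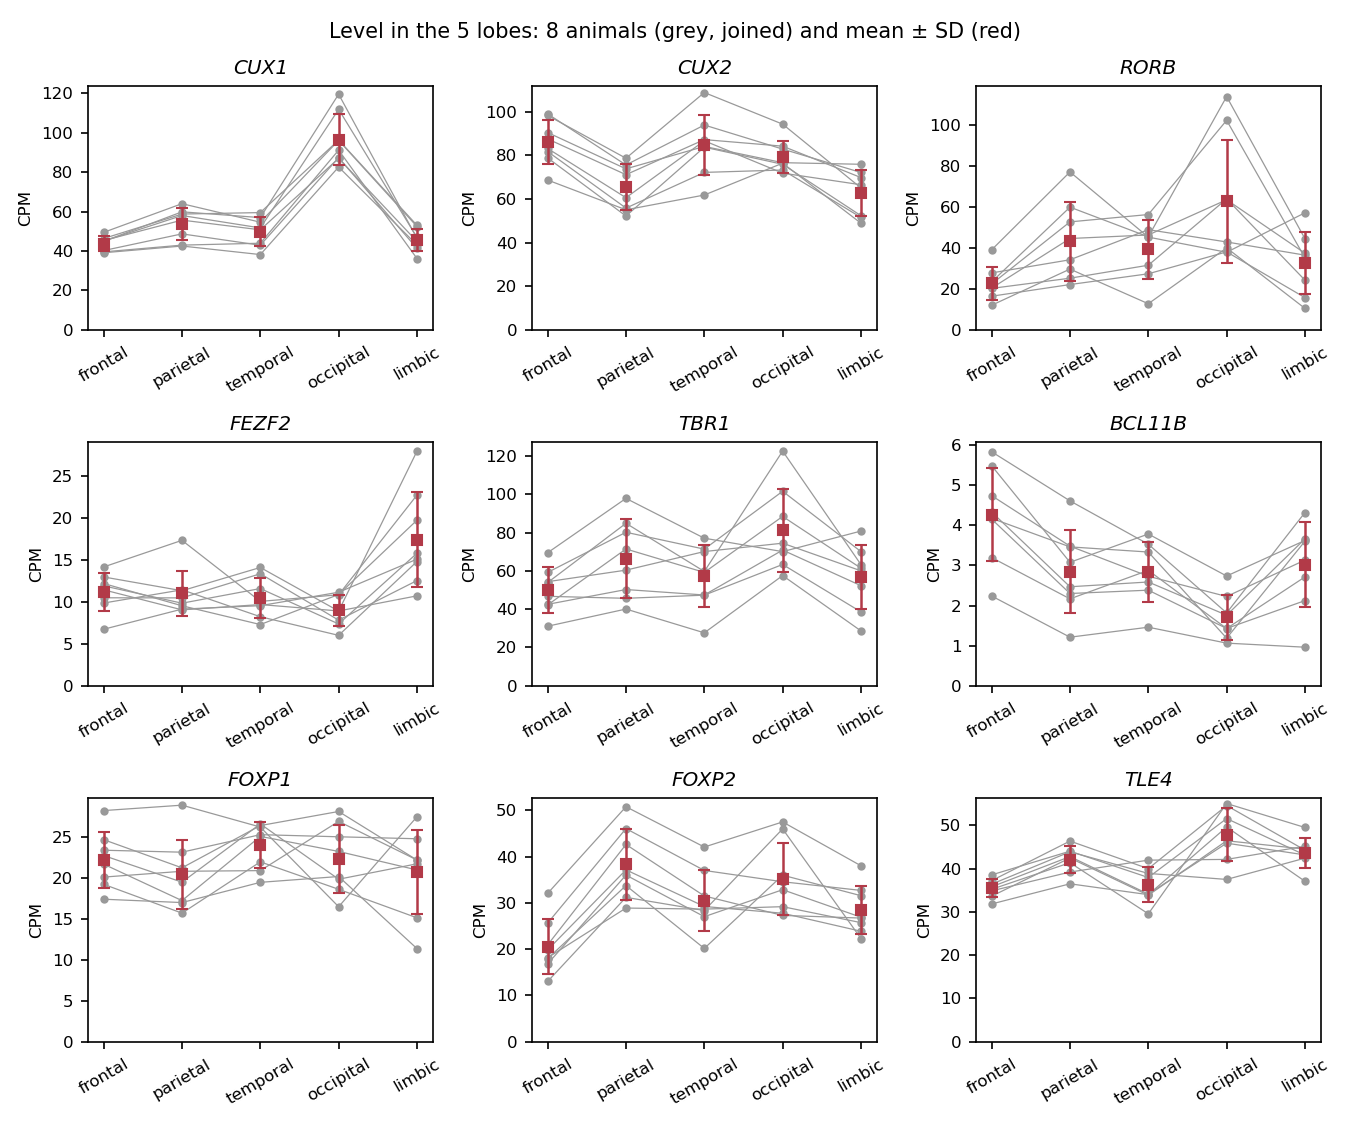
Level (CPM, axes from 0) of the 9 genes in the 5 lobes; each grey line is 1 of 8 animals and red squares with bars are the mean and SD. *CUX1* stood at 96.5 CPM in the occipital lobe against 43.7 to 53.8 CPM elsewhere, *BCL11B* fell from 4.27 CPM (frontal) to 1.70 CPM (occipital), and *FEZF2* peaked at 17.4 CPM in the limbic group.

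Oligodendrocyte markers moved with the lobes as well. The summed level of the 7 of 10 listed markers that matched was 4059 CPM ± 644 in the occipital and 3898 CPM ± 465 in the parietal lobe, and 2492 CPM ± 379 in the frontal, 2680 CPM ± 422 in the temporal lobe and 2638 CPM ± 362 in the limbic group. With the mean log2 level of this list as a covariate, 16 of the 23 lobe calls held. The 7 that did not were *TBR1* (frontal), *TLE4* (frontal, occipital and temporal), *FOXP2* (occipital and parietal) and *CUX2* (parietal), with adjusted values of p from 0.055 to 0.63 in edgeR. The occipital difference of *RORB* went from 0.97 to 0.62 and its frontal one from -0.90 to -0.63, the occipital difference of *TBR1* from 0.54 to 0.30 (FDR = 0.036) and that of *FEZF2* from -0.43 to -0.72. The occipital difference of *CUX1* (0.99), the frontal and occipital ones of *BCL11B* (0.89 and -1.06) and the limbic one of *FEZF2* (0.82) were about as large with the covariate as without it or larger. Astrocyte markers ran in the opposite order, from 3495 CPM ± 259 in the frontal to 2537 CPM ± 321 in the occipital lobe, and their part in these differences was not tested.

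**Figure D4:**
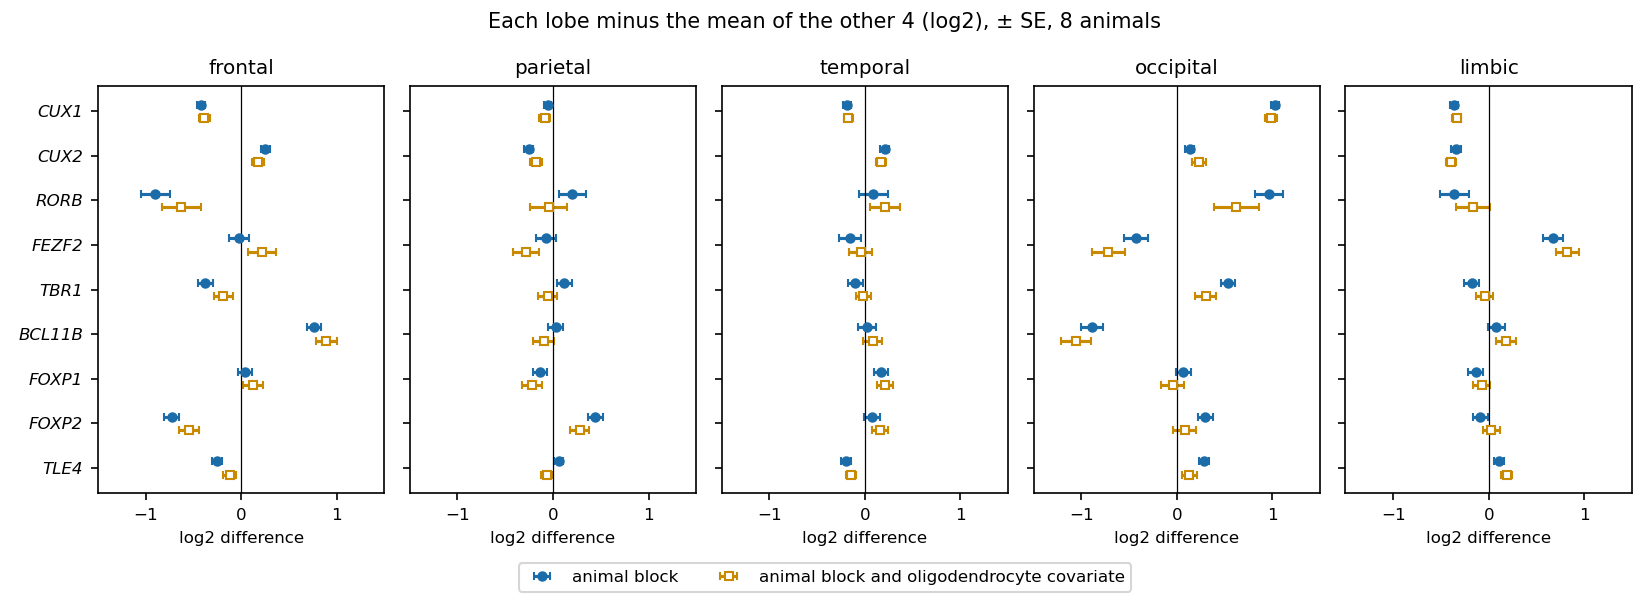
Log2 difference of each lobe from the mean of the other 4 for the 9 genes, with the animal as a block (blue circles) and with the oligodendrocyte marker level added (open orange squares); bars are standard errors from 8 animals. Occipital *RORB* moved from 0.97 to 0.62 and occipital *FOXP2* from 0.30 to 0.08, whereas occipital *CUX1* stayed near 1.

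Between the 31 single sub-regions all 9 members varied by the F test (background 77.3% of genes), although *FOXP1* did not pass it without the animal as a block (FDR = 0.28 in edgeR). Against the mean of the other 30, 49 of 279 pairs of a member and a sub-region were higher and 45 lower, where 10.5% and 8.83% of all pairs over all genes were. *FOXP2* had the most calls, 20 of 31 sub-regions, followed by *CUX1* with 15 and *RORB* with 13, and *FOXP1* had the fewest with 2. With the oligodendrocyte marker level as a covariate, 46 of these 94 calls held in the same direction, among them 13 of 15 for *CUX1*, 8 of 12 for *BCL11B* and all 5 for *FEZF2*, but 8 of 20 for *FOXP2*, 4 of 13 for *RORB*, 4 of 9 for *TLE4*, 1 of 10 for *CUX2* and 1 of 8 for *TBR1*. Another 48 pairs passed only with the covariate or then had the other sign, 18 of them for *FEZF2*, which went from 0.01 to 1.85 in the temporal pole and from 0.02 to 1.70 in the ventromedial prefrontal cortex. The share of the variance of log2 CPM over the cortical samples that lay between sub-regions was 67.2% for *FOXP2* and 64.6% for *CUX1*, and 16.8% for *FOXP1*. Animals took a larger share than sub-regions for *TBR1* (39.1% against 23.9%) and *FOXP1* (23.8% against 16.8%), and for no other member. These shares were not scaled for the unequal numbers of sub-regions (31) and animals (8), so they do not rank the 2 sources.

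The precentral gyri, which hold the motor cortex, were lower than the other sub-regions for 6 members (inferior, background 8.15% of genes) and 4 members (superior, background 7.53%). In the inferior precentral gyrus (IPrCG) the mean of *RORB* was lowest of the 31 sub-regions, with 4.53 CPM in the lowest animal, 12.96 CPM at the median and 18.5 CPM in the highest. For *RORB*, 2 of 8 animals had their own lowest cortical value in this gyrus. The superior precentral gyrus (SPrCG) had 14.4 CPM ± 9.46. Log2 differences were -1.51 (FDR = 9.71e-06) and -1.23 (FDR = 2.24e-04), each in 8 of 8 animals. *FEZF2* was lowest in the same 2 sub-regions on average (6.03 CPM ± 2.24 and 6.17 CPM ± 2.48, log2 differences -0.91 and -0.89), and 1 of 8 animals had its own lowest *FEZF2* in the inferior one. *TBR1* (-0.55) and *FOXP1* (-0.37) were lower in the inferior one, and *TLE4* (-0.31 and -0.30) and *FOXP2* (-0.63 and -0.52) in both. The call of *FOXP1* did not pass with DESeq2 size factors (FDR = 0.051) or without the filter on low counts (FDR = 0.068), both in edgeR. *BCL11B* was higher in the superior precentral gyrus (4.51 CPM ± 1.76, log2 difference 0.57). Oligodendrocyte markers summed to 5836 CPM in the superior and 4815 CPM in the inferior precentral gyrus, where the mean over the cortex was 3100 CPM. With the marker level as a covariate the differences of the 6 lower members were larger, at -2.08 (inferior) and -2.11 (superior) for *RORB* and -1.73 and -2.10 for *FEZF2*. *TBR1* (-0.88) and *FOXP1* (-0.48) were then lower in the superior precentral gyrus too, while *BCL11B* there did not pass (0.52, FDR = 0.063 in edgeR). *CUX2* went the other way. It had not passed in either gyrus (0.09 superior, 0.16 inferior) and was higher in both with the covariate (0.53 and 0.46, FDR = 9.1e-04 and 8.7e-04 in edgeR).

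The anterior cingulate gyrus (ACG) was extreme for 4 members. By the test, 2 members were higher and 4 lower there (background 21.4% and 17% of genes). *FOXP2* was lowest there, with 4.55 CPM in the lowest animal, 5.97 CPM at the median and 19.7 CPM in the highest, and 5 of 8 animals had their own lowest cortical value in this gyrus. *FEZF2* was highest of the 31 there with 11.9, 24.4 and 44.1 CPM, and *BCL11B* was highest too with 1.69, 6.13 and 8.22 CPM. Of the 8 animals, 4 had their own highest *FEZF2* there and 3 their own highest *BCL11B*. *CUX1* was lowest with 39.6 CPM ± 7.83, and 2 of 8 animals had their own lowest value there. Log2 differences to the other 30 sub-regions were -1.80, 1.27, 0.95 and -0.37, and *RORB* (-1.30) and *TBR1* (-0.49) were lower as well. The posterior cingulate gyrus (PCG) shared the high *FEZF2* (22.2 CPM ± 15.0, from 3.34 to 52.2 CPM, log2 difference 0.97), the low *CUX1* (-0.24) and the low *RORB* (-0.65, FDR = 0.0497 in edgeR). In edgeR, this *RORB* call did not pass with DESeq2 size factors (FDR = 0.051) or without the filter (FDR = 0.078). *CUX2* was lower in the PCG too (-0.32, FDR = 0.041), but not without the filter (FDR = 0.072 in edgeR). Neither *BCL11B* nor *FOXP2* passed in the PCG. Oligodendrocyte markers summed to 1027 CPM in the anterior cingulate gyrus, among the lowest of the 31. With the covariate *FOXP2* (-0.78), *FEZF2* (2.67), *BCL11B* (1.00) and *CUX1* (-0.40) still passed there, *RORB* did not (-0.25, FDR = 0.60 in edgeR) and *TBR1* took the other sign without passing (0.14). *CUX2* in the anterior cingulate gyrus went from -0.28 (FDR = 0.051) to -0.79 (FDR = 3.0e-06 in edgeR). In the posterior cingulate gyrus *FEZF2* was then 1.35, *CUX1* (-0.25) and *CUX2* (-0.49) still passed, and *RORB* did not pass (-0.36, FDR = 0.33). In the other limbic sub-regions, *FEZF2* was with the covariate higher in the hippocampal gyrus (1.09) and lower in the fusiform (-0.66) and lingual (-0.60) gyri.

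Other anterior sub-regions were low in *RORB* and *FOXP2*. The ventromedial prefrontal cortex (vmPFC) had 16.04 CPM ± 8.77 and 11.1 CPM ± 6.58 of these (log2 differences -0.98 and -1.34) and the temporal pole (TPG) 16.8 CPM ± 6.84 and 12.5 CPM ± 5.42 (-0.94 and -1.15). The same 2 sub-regions had the highest *CUX2*, 97.96 CPM ± 15.4 and 92.9 CPM ± 17.6 (0.43 and 0.33). Their oligodendrocyte markers were the lowest of the cortex, at 768 and 774 CPM, and with the covariate none of these 6 differences passed. *RORB* then stood at 0.20 and 0.39, *FOXP2* at -0.12 and 0.20 and *CUX2* at -0.18 and -0.34. Without the covariate, 2 members were higher and 3 lower in the vmPFC (background 19.5% and 17.2% of genes). In the TPG 1 was higher and 5 were lower (background 23.1% and 22.7%). The insula (INS) had the highest mean of *FOXP1*, with 26.4 CPM ± 5.46 (0.31), though 0 of 8 animals had their own highest value there. This call did not pass with limma (FDR = 0.066) or without the filter on low counts (FDR = 0.070 in edgeR).

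At the posterior end, the means of *RORB* and *TBR1* were highest in the anterior superior occipital gyrus (aSOG). *RORB* had 31.7 CPM in the lowest animal, 70.5 CPM at the median and 98.2 CPM in the highest, and *TBR1* 59.9, 86.3 and 123 CPM. Of the 8 animals, 0 had their own highest *RORB* there and 1 its own highest *TBR1*. The cuneus (CuG), listed with the parietal lobe, came second for both (62.8 CPM ± 37.3 and 83.7 CPM ± 37.0) and first for *TLE4* (56.1 CPM ± 8.98, log2 difference 0.52). *RORB* and *TBR1* in the cuneus were above the mean of the other sub-regions in 5 of 8 animals each, and *RORB* ranged from 14.1 to 109 CPM. *CUX1* was highest in the posterior superior occipital gyrus (pSOG, 105 CPM ± 21.1, log2 difference 1.07) and the inferior occipital gyrus (IOG, 100.4 CPM ± 22.04, 0.99), each in 8 of 8 animals. The same 2 gyri had the lowest *BCL11B* of the cortex, with 1.32 CPM ± 0.604 and 1.68 CPM ± 0.788 (-1.22 and -0.91). *CUX1* was also higher in the superior and inferior postcentral gyri (0.42 and 0.33), which receive touch. With the covariate the differences of *CUX1* in both occipital gyri (1.08 and 1.00) and of *BCL11B* (-1.24 and -0.93) were about as large, *RORB* in the anterior superior occipital gyrus was 0.65 (FDR = 0.024 in edgeR), and *TBR1* there (0.31, FDR = 0.10) and both genes in the cuneus did not pass.

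**Figure D5:**
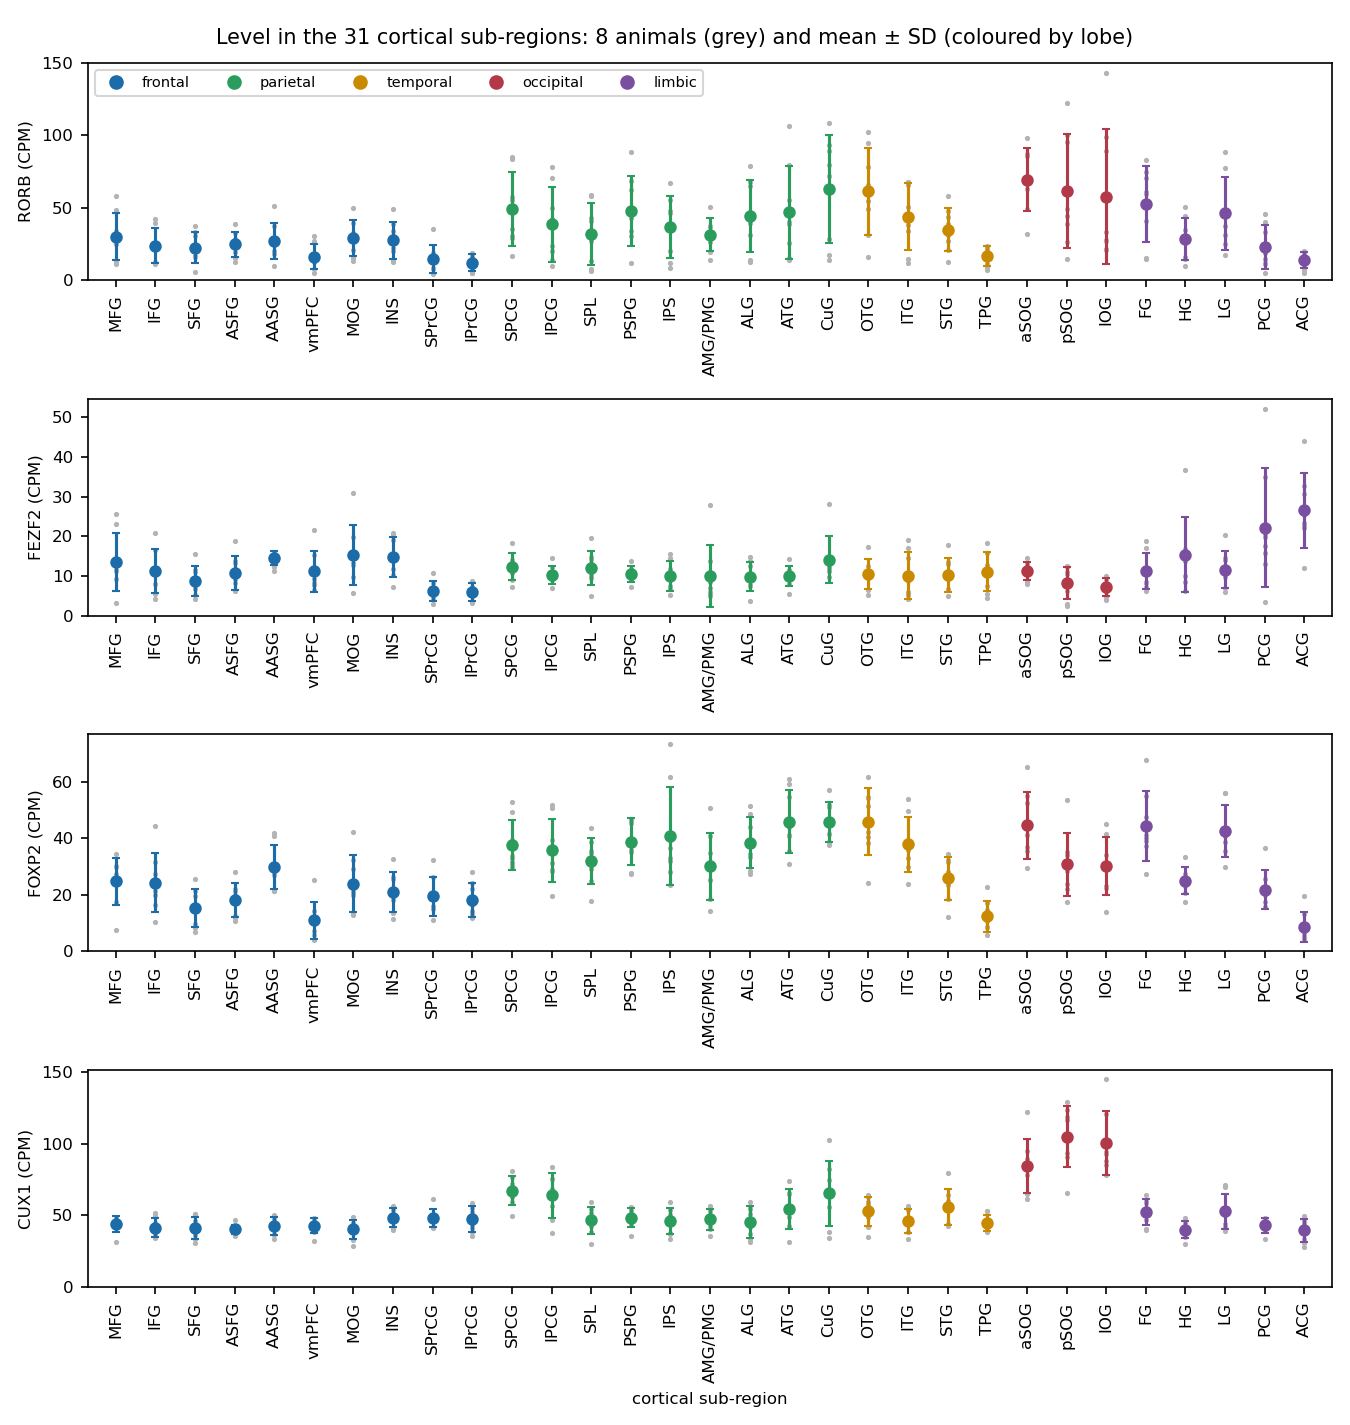
Level (CPM, axes from 0) of *RORB*, *FEZF2*, *FOXP2* and *CUX1* in the 31 cortical sub-regions, ordered by lobe; grey points are 8 animals and coloured points with bars the mean and SD. *RORB* was lowest in the inferior precentral gyrus (IPrCG), *FEZF2* was lowest in both precentral gyri (SPrCG and IPrCG) and highest in the cingulate gyri (ACG and PCG), and *CUX1* was near 100 CPM in the pSOG and IOG.

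Animals differed from each other across the cortex, and 5 of the 9 members (*CUX1*, *RORB*, *TBR1*, *BCL11B* and *FOXP1*) had their lowest cortical mean in animal 4 and their highest in animal 11. The ratio of the highest to the lowest animal was 2.99 for *BCL11B*, 2.73 for *RORB* and 2.28 for *TBR1*, and 1.195 for *TLE4*. *FEZF2* was highest in animal 8 (15.6 CPM) and lowest in animal 6 (9.56 CPM). Animal 4 also had the lowest oligodendrocyte (2529 CPM) and astrocyte (2715 CPM) marker sums and the highest excitatory neuron sum (5674 CPM) of the 8, and animal 11 the lowest excitatory neuron sum (4281 CPM) and the highest astrocyte sum (3366 CPM). Their part in the differences between animals was not tested.

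With age, no member passed an FDR under 0.1 and a log2 change over 1 in the cortex by edgeR or by DESeq2 (background 0.0202% of genes higher and 0.0101% lower in mid-aged animals). With 4 animals a group, log2 differences between mid-aged and young animals ran from -0.34 ± 0.15 for *FEZF2* to 0.26 ± 0.23 for *TBR1*. *FEZF2* was the 1 member with an unadjusted p under 0.05 in either tool (edgeR FDR = 0.85). Between the sexes, no member passed either (background 0.0151% higher and 0.0757% lower in females), none had an unadjusted p under 0.05 in either tool, and log2 differences, female minus male, ran from -0.06 ± 0.15 for *FEZF2* to 0.18 ± 0.32 for *RORB*.

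Other genes of the same kind were taken as lists for context. Of 24 further transcription factors of layers and projection neurons, 22 matched. In the cortex, 18 were higher and 2 lower (*ZFPM2* and *NFIA*) than in the mean of the 20 sub-regions. Over all genes, 34.1% were higher and 32.6% lower in this comparison. The median log2 difference of the list was 1.66 against -0.01 over all genes tested. Among the 18 were *MEF2C* (3.66), *LMO4* (2.52), *ID2* (1.67) and *LMO3* (1.55). The 3 paralogs of *TLE4* that matched, *TLE1* (0.65), *TLE2* (0.43) and *TLE3* (0.22), were higher in the cortex, where *TLE4* was lower.

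Further genes named for their layers were counted in the occipital and frontal lobes. Over all genes, 29.4% were higher and 26% lower in the occipital lobe, and 24.3% and 22.1% in the frontal lobe. Of 8 upper layer genes, 1 was higher and 7 were lower in the occipital lobe, with a median log2 difference of -0.99 against 0.01 over all genes, and *RASGRF2* (-1.36), *CALB1* (-1.06) and *SERPINE2* (-0.48) were among the 7. *CUX1*, *CUX2* and *RORB*, 3 members of the upper layers, were higher there, *CUX2* only by 0.14 and in 5 of 8 animals. Of the 9 of 12 listed deep layer genes that matched, 4 were higher and 5 lower in the occipital lobe, with *PCP4* (1.60) and *CRYM* (-1.74) at the ends among the named ones. In the frontal lobe 4 of the upper layer genes were higher and 1 lower (median 0.17), and 2 of the deep layer genes were higher and 5 lower (median -0.35), where the 9 members had the same counts of 2 and 5 (median -0.25). Differences between the lists were not tested.

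Over the 51 sub-regions, profiles were compared by Pearson's r of mean log2(CPM + 1), as a description, since sub-regions share animals and libraries. *TBR1* was most like *MEF2C*, *VIP* and *RFTN1* (r = 0.97 each), *RORB* was like *LPIN3* (0.96) and *SULT2B1* (0.95) and *CUX2* was most like *ASAP1*, *BEND4* and *CSNK1E* (0.92 to 0.93). *BCL11B* was most like *PLPPR1*, *ADAMTS3* and *RGS14* (0.89 to 0.91), *FEZF2* like *SPMIP2*, *MOXD1* and *ZDHHC23* (0.88 to 0.89), *TLE4* like *POC5*, *TTC12* and *ANKRD13A* (0.84 to 0.91) and *FOXP1* like *SH3RF2*, *OSBPL8* and *RARB* (0.85 to 0.88). *CUX1* (*HS3ST1* and *DDX23*, 0.82 and 0.78) and *FOXP2* (*HAGHL*, *RCAN2* and *RABEPK*, 0.79 to 0.80) had the lowest values of r with their nearest genes.

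Between the members themselves, *CUX2* and *RORB* had r = 0.81 over the 51 sub-regions, *RORB* and *TBR1* 0.80 and *CUX2* and *TBR1* 0.79. The order of these pairs changed with the measure: by Spearman's rho *RORB* and *TBR1* were closest (0.93, against 0.63 for *CUX2* and *RORB*), and with a pseudocount of 0.1 *FEZF2* and *TBR1* were (r = 0.82). Over the 31 cortical sub-regions *RORB* and *TBR1* had r = 0.95, *RORB* and *FOXP2* 0.87 and *TBR1* and *FOXP2* 0.86, whereas *CUX2* and *RORB* had -0.35. *BCL11B* ran against *RORB* (-0.79), *TBR1* (-0.74), *FOXP2* (-0.72) and *CUX1* (-0.72). Over these same 31 means, *BCL11B* had r = 0.92 with the astrocyte marker sum, and *RORB*, *TBR1* and *TLE4* had -0.87, -0.87 and -0.82. With the sum of general neuron markers *FOXP2* had 0.90, *TBR1* 0.86 and *RORB* 0.84, while *BCL11B* had -0.75 and *CUX2* -0.61. With the excitatory neuron sum *TLE4* had -0.74, *TBR1* -0.71 and *CUX1* -0.64, while *BCL11B* had 0.60. The part of these cell types in the profiles was not tested.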

How the data were processed

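Strand-specific RNA-seq libraries depleted of ribosomal RNA from 51 brain sub-regions of 8 macaques were used. Midbrain samples of the same animals were not analysed here. Per the submitters' processing notes, Trim Galore 0.4.4, HISAT2 2.0.5 and HTSeq 0.6.1 were used, and the authors deposited raw counts per gene, used here as deposited. Whether the counting used strand is not given in the sources used here. Groups came from the sample labels, and lobes from the study's list of regions. The members and gene lists were chosen with earlier results of these data known.

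Genes were filtered with filterByExpr and scaled by TMM, and the quasi-likelihood test of edgeR 4.0.16 was run with Benjamini-Hochberg adjustment over all genes (FDR < 0.05, and for age and sex, with the other as covariate, FDR < 0.1 and a log2 change over 1). Counts were summed within an animal over the 31 cortical sub-regions or over a lobe. Samples of the same animal deviated together (median correlation 0.561, lowest animal 0.4897, different animals -0.07526), so the animal, known from the labels, was a block. For profiles, the 3 genes with the highest Pearson's r of log2(CPM + 1), at a mean of at least 1 CPM, were named, and in each list the 4 genes with the highest cortical level, beside those that rank at the ends of a count, chosen after their values were seen. Some genes that this rule names are not reported here. Replicates are animals. The scripts were tested on simulated data.

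Alternatives were DESeq2 1.42.0, limma 3.58.1, other size factors, no filter, no block, an oligodendrocyte covariate, 1 pair at a time, leaving out each animal and, chosen after seeing the data, leaving out 4 libraries with high *SLC17A7*. Total counts of 7784678 to 31083490 per sample limit what low levels can show. No sequences were used.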

Additional observations from a re-analysis of the deposited data

Results flagged for a closer look

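Dixon's test was run on 219 groups of 8 animals. These were each gene in the cortex, the 5 lobes and those of the 20 other sub-regions where a sample had over 3 reads. Of them, 20 held 1 animal far from the other 7, where chance gives about 1 in 20 independent groups. Genes share libraries and the cortex includes the lobes, so the groups were not independent and the 20 cannot be set against that rate. In the hypothalamus, animal 6 was highest for *CUX1* (64.9 CPM), *CUX2* (80.7 CPM), *RORB* (33.4 CPM), *TBR1* (46.2 CPM), *BCL11B* (4.54 CPM) and *FOXP1* (17.3 CPM), the library in which *SLC17A7* reached 473 CPM. In the nucleus accumbens, animal 10 was highest for *TBR1* (13.9 CPM) and *FEZF2* (16.3 CPM), and in the putamen animal 3 for *TBR1* (6.22 CPM) and *FEZF2* (10.8 CPM), again the libraries with high *SLC17A7*. The part of cortical tissue in these libraries was not tested.

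The other 10 lay in libraries without that mark. *FEZF2* was highest in animal 8 in the parietal lobe (17.3 CPM, others 9.03 to 11.4 CPM) and the pituitary (12.7 CPM, others 0.105 to 1.86 CPM), in animal 3 in the olfactory bulb (8.42 CPM, others up to 5.25 CPM) and in animal 7 in the entorhinal and perirhinal cortex (25.6 CPM, others up to 14.3 CPM). *FOXP2* was lowest in animal 8 in the thalamus (35.7 CPM, others 87.8 to 111 CPM) and highest in animal 11 in the olfactory bulb (21.4 CPM, others up to 15.7 CPM) and in animal 3 in the corpus callosum (17 CPM, others up to 10.8 CPM). *CUX2* in the dentate gyrus of animal 3 (1.67 CPM, others from 4.24 CPM) and *FOXP1* in the cerebellar cortex of animal 4 (2.46 CPM, others from 7.31 CPM) were low, and *BCL11B* in the thalamus of animal 6 (0.405 CPM, others up to 0.106 CPM) was high at 6 reads.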

How the results depend on the processing

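The 9 differences between the cortex and the mean of the 20 sub-regions kept their direction under every alternative run, and only *BCL11B* with limma (0.51) fell short of the threshold. Without a filter on low counts, 8995 genes in place of 5760 were higher in the cortex. Sub-regions near the cortical level changed sign without passing: *FOXP2* in the globus pallidus (0.0232), medulla oblongata (0.75) and ventral tegmental area (0.0117), *CUX1* in the medulla oblongata (0.00603), *TLE4* in the olfactory bulb (0.0335) and *FOXP1* in the pituitary (0.0946) when 1 pair was fitted at a time, *FOXP2* in the medulla oblongata (0.52) and *CUX1* in the thalamus (-0.0175) with limma, and *FOXP2* in the globus pallidus (0.0279), *CUX1* in the medulla oblongata (0.0211), *TLE4* in the olfactory bulb (0.10) and *FOXP1* in the pituitary (0.11) without the filter.

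Without the animal as a block (no replicate block), 7 member and lobe pairs in place of 11 were higher, with 6127 and 4887 pairs over all genes in place of 14271 and 12815, and among single sub-regions 32 member pairs were higher and 26 lower in place of 49 and 45 (30412 and 24282 over all genes in place of 52246 and 43730). The lobe calls lost without the block were *TBR1* (frontal), *CUX2* and *FOXP2* (occipital and parietal each) and *CUX2* and *CUX1* (temporal). Among lobes, limma turned the sign of parietal *BCL11B* (-0.0577) and *FEZF2* (0.0035) and temporal *FOXP2* (-0.0414), none of them past the threshold.

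The oligodendrocyte covariate left 9346 and 8158 pairs over all genes and lobes. It turned the sign of frontal *FEZF2* (0.22), limbic *FOXP2* (0.0267), occipital *FOXP1* (-0.0423) and parietal *BCL11B* (-0.10), *TBR1* (-0.0556), *RORB* (-0.0441) and *TLE4* (-0.0589). In single sub-regions it turned *FOXP2* in the superior (-0.0636) and inferior (-0.21) postcentral gyri, the intraparietal sulcus (-0.0728), the temporal pole (0.20), the anterior superior frontal gyrus (ASFG, 0.38) and the insula (0.40, past the threshold), *CUX2* in the temporal pole (-0.34), ASFG (-0.17), ventromedial prefrontal cortex (-0.18) and insula (-0.12), *TBR1* in the temporal pole (0.25) and anterior cingulate gyrus (0.14), *RORB* in the temporal pole (0.39) and ventromedial prefrontal cortex (0.20) and *TLE4* in the temporal pole (0.46) and ASFG (0.23), both past the threshold. The cause was not tested.

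With age, 4 genes were higher and 2 lower, against 44 and 32 with DESeq2, 2 higher without the sex covariate and 0 and 0 without the filter; 3 genes were higher in females, against 13 with DESeq2. Leaving out 1 animal at a time gave 3 to 7 genes higher in females and 0 to 3 higher and 0 lower with age, and moved parietal *BCL11B* from -0.0281 to 0.0845, temporal *BCL11B* from -0.0487 to 0.0701, frontal *FEZF2* from -0.0657 to 0.0649, and by sex *FEZF2* from -0.148 to 0.0342 and *RORB* from -0.0684 to 0.476. Leaving out 1 animal was not run for the single non-cortical sub-regions, and neither it nor DESeq2 for the cortical ones. At 0 to 6 reads per library, levels of *FEZF2*, *TBR1* and *BCL11B* in the cerebellum, pons and thalamus were not resolved.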
